A study of Mus musculus with 8 samples.

Results

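The genes described here are the cadherins and protocadherins of the mouse, taken as every gene whose symbol is Cdh followed by a number or begins with Pcdh. Of 28460 genes in the count table, 59 had such a name, and the 42 with an estimated count of 10 or more in at least 4 libraries were kept. They comprised 5 classical cadherins of type I, 6 of type II, 3 other Cdh genes, 21 rows of the clustered protocadherins and 7 non-clustered protocadherins. The libraries are RNA-seq of P12 testis cells labelled spermatogenic, from mice of mixed background, 4 of them wild type for Brg1 (Brg1 WT) and 4 carrying its conditional knockout (Brg1 cKO). Brg1 is encoded by Smarca4 and drives nucleosome remodelling by SWI/SNF. The study's design text calls the 4 libraries of each genotype biological replicates. The cells were freed from the testis by enzymes and passed through a sieve, with no sort named, so that RNA of somatic cells was measured with that of germ cells. The sources used here do not give the Cre driver, the deleted exons or the cells that carry the deletion.

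Cadherins are membrane proteins that bind cadherins of neighbouring cells in the presence of calcium. Classical cadherins hold beta-catenin and p120-type catenins on their cytoplasmic tails and so link the junction to actin, type I members such as E- and N-cadherin giving strong adhesion and type II members marking mesenchyme, endothelium and neurons. In the testis N-cadherin lies at junctions of Sertoli cells with each other and with germ cells, and E-cadherin marks undifferentiated spermatogonia. Protocadherins lack the catenin-binding tail. The clustered ones are made from 3 adjoining gene arrays, alpha, beta and gamma, in which each variable exon has its own promoter, the alpha and gamma variants being spliced to constant exons shared within the array.

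Library totals ran from 20456700 to 32596000 estimated counts, and levels are given as CPM, counts relative to the library total after TMM scaling. Smarca4 had 338 to 357 CPM in Brg1 WT and 111 to 129 CPM in Brg1 cKO. Summed CPM of 10 pan-germ cell markers was 1857 to 2464 in Brg1 WT and 1425 to 1861 in Brg1 cKO, that of 12 Sertoli cell markers 4301 to 5849 and 5625 to 7704, and that of 11 peritubular and stromal markers 1414 to 2445 and 2060 to 3300. Brg1 WT replicate 1 had the highest germ cell sum and the lowest Sertoli, stromal and endothelial sums of the 8 libraries. In bulk RNA fewer cells of a type and less RNA per cell cannot be told apart.

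Among the 42 kept genes, 5 were higher and 2 lower in Brg1 cKO at an adjusted p under 0.05 (edgeR quasi-likelihood test, Benjamini-Hochberg adjustment over 16059 genes). The genes that fell were Cdh15 and Cdh24, and those that rose were Cdh4, Cdh23, Pcdhga9, Pcdhb9 and Pcdhb3. Of all genes tested, 20.6% were called, 8.79% higher and 11.8% lower, so that the 7 calls among 42 are a share near the background. The members' log2 fold changes, Brg1 cKO against Brg1 WT, had a median of 0.58 beside 0.013 for all genes tested, and 37 of 42 lay above 0, as did 51.5% of all genes. These counts are a description and support nothing. Among the members 10 had a count of 10 or more in only some libraries, and 7 of those reached it in more Brg1 cKO than Brg1 WT libraries. In the fit without Brg1 WT replicate 1, 35 of the 42 lay above 0. With all 8 libraries 22 of the 42 had an unadjusted p under 0.05 in the edgeR test, beside 36.7% of all genes tested. Without Brg1 WT replicates 1 and 2 no member was called by edgeR, where 8 had an unadjusted p under 0.05 and 438 of all genes were called. The share of all genes with an unadjusted p under 0.05 in that fit is not given here. Leaving out any 1 library gave 2 to 8 called members, and calls over all genes changed as well, from 3312 with all 8 libraries. Without Brg1 cKO replicate 1 or replicate 3 there were 2 called members, beside 1608 and 1881 of all genes. Without Brg1 WT replicate 2 or replicate 3 there were 3, beside 1777 and 2135. Without Brg1 WT replicate 1 or replicate 4 there were 4, beside 2037 and 2739.

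**Figure D1:**
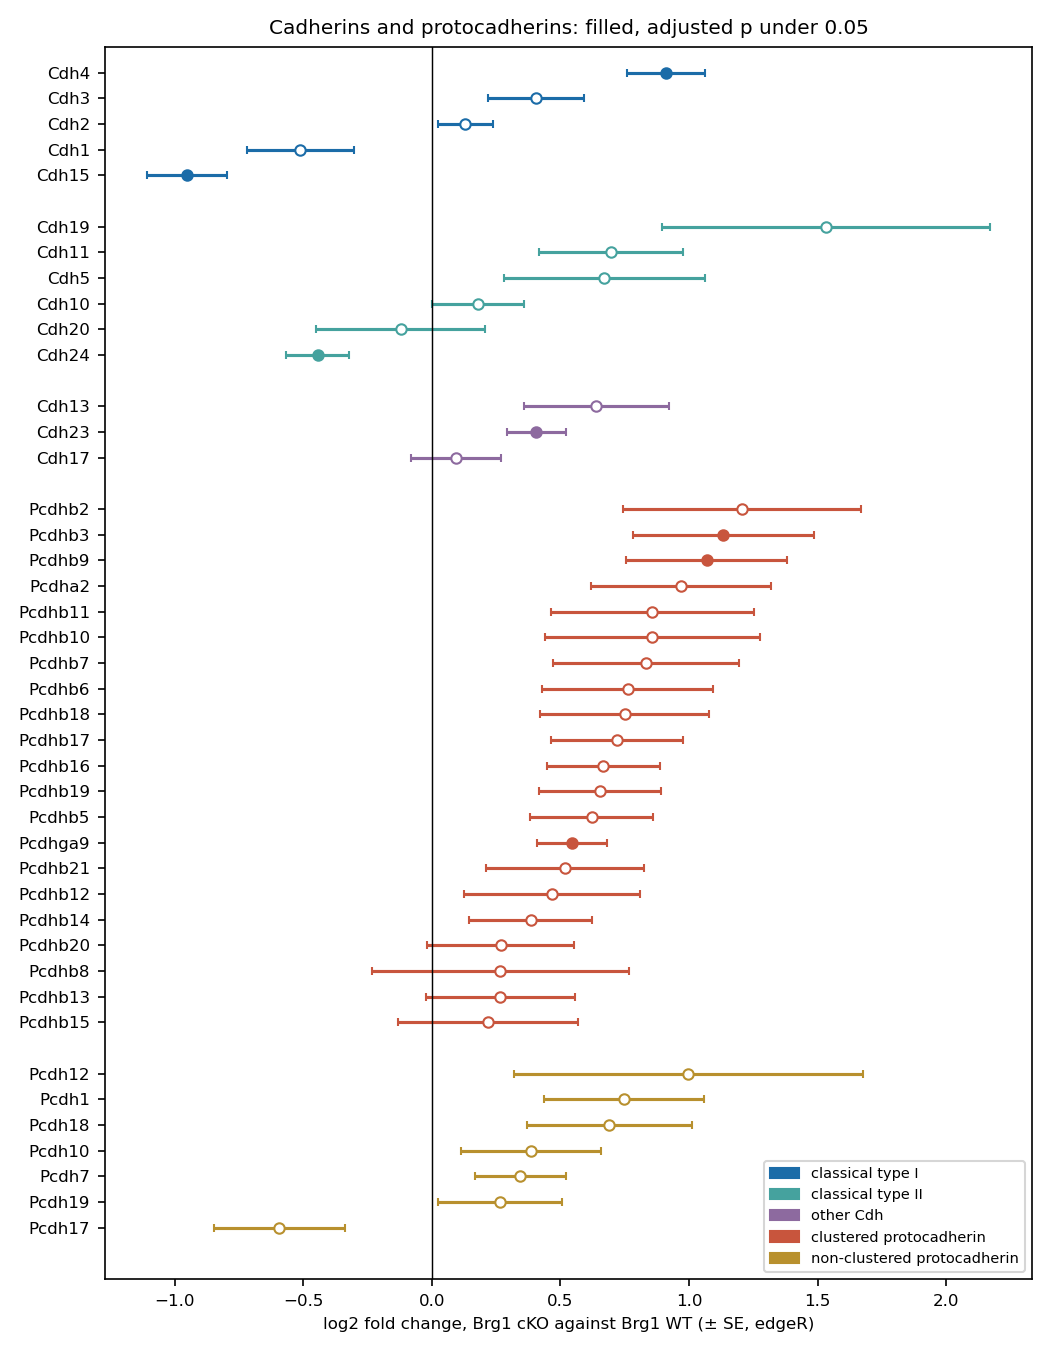
Log2 fold change of the 42 kept genes, Brg1 cKO against Brg1 WT, with the standard error as bars, grouped by class and filled where the adjusted p was under 0.05. The 21 clustered protocadherin rows all lie to the right of 0, between 0.22 and 1.20, while classical cadherins lie on both sides, from -0.95 for Cdh15 to 1.53 for Cdh19.

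The type I classical cadherins moved both ways. Cdh15, which encodes M-cadherin, best known from skeletal muscle, fell 1.93-fold, and Cdh4, which encodes R-cadherin of retina and brain, rose 1.88-fold. Cdh2 (N-cadherin), Cdh3 (P-cadherin) and Cdh1 (E-cadherin) were not called. Per kilobase of transcript, Cdh2 was the highest of the 5 in Brg1 WT with 26.7 CPM per kb, followed by Cdh3 with 4.40, Cdh1 with 1.92, Cdh15 with 1.22 and Cdh4 with 0.44, so that both called members stood at the low end of the class.

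In replicate order, Cdh15 stood at 4.05, 4.10, 3.82 and 3.91 CPM in Brg1 WT and at 2.01, 2.41, 1.84 and 1.93 CPM in Brg1 cKO. The groups did not overlap and each was narrow, at 3.97 ± 0.13 CPM (SD, n = 4) in Brg1 WT and 2.05 ± 0.25 CPM (SD, n = 4) in Brg1 cKO. The log2 fold change was -0.95 with an SE of 0.16 (edgeR, adjusted p = 0.0053). Cdh4 had 2.43, 3.03, 2.93 and 2.85 CPM in Brg1 WT and 4.99, 6.20, 4.89 and 5.05 CPM in Brg1 cKO. Every Brg1 cKO library was above every Brg1 WT library, with Brg1 cKO replicate 2 the highest. The log2 fold change was 0.91 ± 0.15 (SE, adjusted p = 0.0056). These calls held in each fit without 1 library and were lost without Brg1 WT replicates 1 and 2 together, at nearly the same size (Cdh15 -0.91, adjusted p = 0.058, and Cdh4 0.87, adjusted p = 0.054). Brg1 cKO replicate 4, whose stromal sum of 2060 CPM lay within the Brg1 WT range, had Cdh15 and Cdh4 at 1.93 and 5.05 CPM, and the part of stromal RNA in either gene was not tested. Brg1 cKO replicate 2, the highest of its group for both genes, also had the highest pan-germ cell sum of its group. That sum was 1861 CPM, against 1774 CPM in Brg1 cKO replicate 4, and the part of germ cell RNA was not tested.

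Cdh2 had 116, 125, 136 and 139 CPM in Brg1 WT and 146, 112, 147.5 and 159 CPM in Brg1 cKO. The groups overlapped through Brg1 cKO replicate 2, which was the lowest of all 8 libraries. The log2 fold change was 0.13 ± 0.11 (SE, adjusted p = 0.401). The Sertoli cell marker sum in Brg1 cKO replicate 2 was 5625 CPM, against 7408, 7704 and 7489 CPM in Brg1 cKO replicates 1, 3 and 4, and its part in Cdh2 was not tested. Cdh1 had 7.09, 10.8, 7.61 and 8.43 CPM in Brg1 WT and 4.94, 7.65, 6.74 and 4.40 CPM in Brg1 cKO. Its groups overlapped in the narrow span between 7.09 and 7.65 CPM, and edgeR did not call it (log2 fold change -0.51 ± 0.21 SE, adjusted p = 0.106). Of 10 markers of undifferentiated spermatogonia, the cells that E-cadherin marks, 6 fell and 2 rose, beside 11.8% and 8.79% of all genes tested. Their summed CPM was 336 to 445 in Brg1 WT and 240.5 to 320 in Brg1 cKO, and their part in Cdh1 was not tested. Cdh3 averaged 19.3 ± 4.28 CPM (SD, n = 4) in Brg1 WT and 25.5 ± 4.83 CPM (SD, n = 4) in Brg1 cKO, which edgeR did not call (adjusted p = 0.146).

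**Figure D2:**
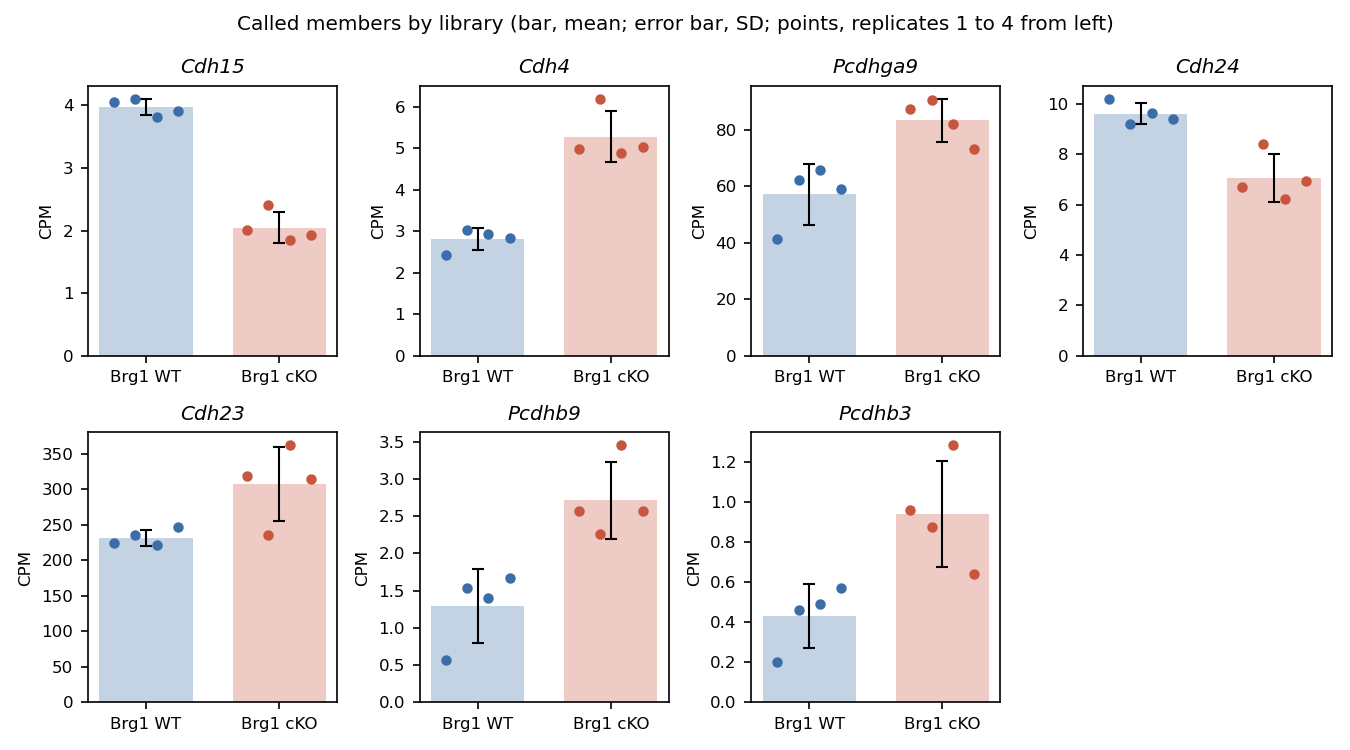
CPM of the 7 called genes in each library, with the mean as a bar and the SD as an error bar. Cdh15 and Cdh24 are lower in all 4 Brg1 cKO libraries, Cdh4, Pcdhga9, Pcdhb9 and Pcdhb3 are higher in all 4, and Cdh23 overlaps between the groups because Brg1 cKO replicate 2 stands at 236 CPM.

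Among type II cadherins Cdh24 fell and the other 5 were not called. Cdh24, a cadherin that binds catenins like other classical members, had 10.2, 9.20, 9.63 and 9.40 CPM in Brg1 WT and 6.68, 8.42, 6.22 and 6.93 CPM in Brg1 cKO. All Brg1 cKO libraries lay below all Brg1 WT libraries, replicate 2 being the nearest to them. The log2 fold change was -0.44 ± 0.12 (SE, adjusted p = 0.033), and the difference kept its sign but not its call when any library except Brg1 cKO replicate 2 was left out (adjusted p = 0.057 to 0.090) and with no filter (adjusted p = 0.051).

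Cdh5 and Cdh11, the VE-cadherin of endothelium and a cadherin of mesenchyme, were the most abundant of type II, with 6.98 and 4.78 CPM per kb in Brg1 WT. Cdh5 had 18.3, 37.9, 31.5 and 23.98 CPM in Brg1 WT and 48.3, 72.1, 37.3 and 19.6 CPM in Brg1 cKO. Its spread within Brg1 cKO was wider than the distance between the groups (log2 fold change 0.67 ± 0.39 SE, adjusted p = 0.251). The endothelial marker sum was likewise highest in Brg1 cKO replicate 2, with 371 CPM, and low in Brg1 WT replicate 1 and Brg1 cKO replicate 4, with 153 and 164 CPM. It did not go with Cdh5 in every library. Brg1 WT replicate 4 had a sum of 240 CPM with Cdh5 at 23.98 CPM, and Brg1 cKO replicate 3 had 173 CPM with Cdh5 at 37.3 CPM. Pecam1, an adhesion molecule of endothelium, was the largest part of the sum in every library. It had 235 CPM in Brg1 cKO replicate 2 and 101 to 182 CPM in the other 7 libraries. Its values were 182 CPM in Brg1 WT replicate 4 and 101 CPM in Brg1 cKO replicate 3. Every other endothelial marker was higher in Brg1 cKO replicate 3 than in Brg1 WT replicate 4, as Cdh5 was. Kdr, for example, had 17.6 and 15.2 CPM. Cdh11 had 13.8, 29.2, 34.4 and 30.6 CPM in Brg1 WT and 55.4, 46.2, 42.1 and 31.1 CPM in Brg1 cKO, overlapping only through Brg1 cKO replicate 4 (log2 fold change 0.70 ± 0.28 SE, adjusted p = 0.110). The stromal marker sum was 1414 CPM in Brg1 WT replicate 1 and 2060 CPM in Brg1 cKO replicate 4, the lowest of each group, as Cdh11 was. The part of stromal and endothelial RNA in these differences was not tested.

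The remaining type II genes were low. Cdh10 had 2.84 ± 0.30 and 3.21 ± 0.53 CPM (SD, n = 4 each). Cdh19, a cadherin of neural crest derivatives, had 0.71, 1.38, 0.37 and 0.12 CPM in Brg1 WT and 1.65, 2.99, 2.13 and 0.64 CPM in Brg1 cKO. That was the largest log2 fold change among the 42 genes, 1.53 ± 0.64 (SE), with an adjusted p = 0.117 and overlapping groups. Cdh20 had 0.78 ± 0.25 and 0.72 ± 0.21 CPM. Of the 13 type II genes present, 7 did not reach the count rule, Cdh6, Cdh7, Cdh8, Cdh9, Cdh12, Cdh18 and Cdh22, with at most 12 estimated counts in any library.

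Cdh23, known from the tip links of inner ear hair cells, was the most abundant gene of the family by CPM, and rose in Brg1 cKO. It had 225, 235, 222 and 247 CPM in Brg1 WT and 319, 236, 362 and 314 CPM in Brg1 cKO. Of the Brg1 cKO libraries 3 stood above all Brg1 WT libraries and replicate 2 stood among them. The average was 232 ± 11.3 CPM (SD, n = 4) in Brg1 WT and 308 ± 52.6 CPM (SD, n = 4) in Brg1 cKO, and the log2 fold change was 0.41 with an SE of 0.11 (edgeR, adjusted p = 0.035). Per kilobase its level in Brg1 WT, 20.9 CPM per kb, was below that of Cdh2. The call was lost on leaving out any library but Brg1 cKO replicate 2 (adjusted p = 0.051 to 0.090), and without that replicate the log2 fold change was 0.52. Brg1 cKO replicate 2 also had the lowest Sertoli marker sum of its group, and the part of Sertoli cell RNA was not tested. Pcdh15, the partner of Cdh23 in the tip link, had 0 to 3.08 estimated counts in a library. Cdh13, a cadherin held by a lipid anchor, had 1.05 ± 0.21 and 1.63 ± 0.58 CPM and was not called (adjusted p = 0.133). Cdh17, a 7-domain cadherin of intestine, had 1.42 ± 0.11 and 1.51 ± 0.064 CPM (adjusted p = 0.727).

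The 250 bases before the RefSeq start sites of Cdh24 and Cdh23 are printed to show the upstream sequence of a member that fell and one that rose. They are given 5′ to 3′ on the gene's strand, in the build GRCm38.p6 of the RefSeq table, since the count table holds no coordinates. Both windows are free of exons annotated in GENCODE M21. Capitals mark matches to GGGCGG or its reverse complement CCGCCC, the GC box to which Sp1 binds.
Cdh24, chr14:54641365-54641614, minus strand: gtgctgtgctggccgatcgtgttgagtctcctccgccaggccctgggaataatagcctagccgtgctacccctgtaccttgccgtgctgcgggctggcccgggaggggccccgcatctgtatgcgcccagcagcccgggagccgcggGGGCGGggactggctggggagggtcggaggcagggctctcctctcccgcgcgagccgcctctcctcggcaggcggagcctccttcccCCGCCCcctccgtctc
Cdh23, chr10:60696491-60696740, minus strand: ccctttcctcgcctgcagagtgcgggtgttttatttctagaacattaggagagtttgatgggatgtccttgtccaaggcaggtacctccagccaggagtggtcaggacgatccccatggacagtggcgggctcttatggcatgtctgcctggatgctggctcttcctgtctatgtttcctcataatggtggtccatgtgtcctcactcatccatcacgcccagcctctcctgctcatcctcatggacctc
The Cdh24 window had 72.8% G and C with 22 CpG and 2 GC boxes, beginning 103 and 16 bases before the start, and the Cdh23 window had 54.4% G and C with 5 CpG and no GC box. A GC box was found in 32.7% of 32851 RefSeq windows of this length. Neither window held CACCTG or its reverse complement CAGGTG, the E-box bound by Snail and Zeb repressors, which 17.2% of all windows held. Of the 42 kept genes 10 had such a window, of which 6 held a GC box and none held CACCTG. Among the 10 was Cdh15, which also fell. Its window lay wholly within annotated exons and is not printed. It had 62% G and C with 3 GC boxes.

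Of the 21 clustered protocadherin rows kept, 3 rose, none fell and 18 were not called, all with a log2 fold change above 0. Over all genes tested 8.79% rose and 11.8% fell. The beta proteins are encoded by single exons with no shared constant exon. The table held 22 beta rows, as RefSeq has 22 beta genes, and of the 19 kept 2 rose, none fell and 17 were not called, with 10 at an unadjusted p under 0.05, a threshold that 36.7% of all genes tested passed. All 19 log2 fold changes were above 0, from 0.22 for Pcdhb15 to 1.20 for Pcdhb2, with a median of 0.67, where 51.5% of all genes tested lay above 0. The count is a description only. A count of 10 or more was reached by 5 of the 19 in more Brg1 cKO than Brg1 WT libraries. Among them Pcdhb2 reached it in 3 Brg1 cKO libraries and 1 Brg1 WT library. The genes are close paralogs and reads can be split between them, so the sum over the array is given as well, with no test.

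The 22 beta rows summed to 12.5, 21.2, 24.5 and 23.8 CPM over the Brg1 WT libraries in replicate order, and to 32.6, 32.8, 33.3 and 28.4 CPM over the Brg1 cKO libraries. All Brg1 cKO libraries stood above all Brg1 WT libraries, and Brg1 WT replicate 1 stood well below the other 3. The sums averaged 20.5 ± 5.52 CPM (SD, n = 4) and 31.8 ± 2.25 CPM (SD, n = 4), with a ratio of 1.55. Brg1 WT replicate 1 had the lowest Brg1 WT value for 18 of the 19 genes. Without it the ratio was 1.37 and 17 of the 19 log2 fold changes were above 0, and without Brg1 WT replicates 1 and 2 they were 1.32 and 16.

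Pcdhb9 had 0.57, 1.53, 1.41 and 1.67 CPM in Brg1 WT and 2.56, 2.26, 3.45 and 2.57 CPM in Brg1 cKO, with no overlap (log2 fold change 1.07 ± 0.31 SE, adjusted p = 0.040, edgeR). Pcdhb3 had 0.20, 0.46, 0.49 and 0.57 CPM in Brg1 WT and 0.96, 0.87, 1.28 and 0.64 CPM in Brg1 cKO, also with no overlap (log2 fold change 1.13 ± 0.35 SE, adjusted p = 0.047). Pcdhb9 lost its call without Brg1 WT replicate 2 or 3 or Brg1 cKO replicate 1, 3 or 4 (adjusted p = 0.057 to 0.0996), and Pcdhb3 without any library except Brg1 cKO replicate 4 (adjusted p = 0.056 to 0.123). The call of Pcdhb3 was also lost with unrounded estimated counts (adjusted p = 0.055) and with no filter (adjusted p = 0.065). Pcdhb14 and Pcdhb16, the most abundant beta genes by CPM, had 2.52 ± 0.58 against 3.29 ± 0.75 CPM (adjusted p = 0.271) and 2.12 ± 0.46 against 3.36 ± 0.61 CPM (adjusted p = 0.057). Pcdhb16 and Pcdhb19 did not overlap between the groups although neither was called. In all, 9 of the 42 genes showed no overlap, where 26% of all genes tested did so. Pcdhb1 and Pcdhb22 had at most 1.33 estimated counts, and Pcdhb4, with 7 to 16.1, missed the count rule by 1 library.

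The alpha and gamma arrays each had 1 row in the table, Pcdha2 and Pcdhga9, where RefSeq lists 14 and 22 symbols. The sources used here do not say whether a row holds reads of other variants, which share the constant exons, and each is taken as the row so named. Pcdhga9 had 41.3, 62.2, 66.0 and 59.1 CPM in Brg1 WT and 87.5, 90.7, 82.0 and 73.2 CPM in Brg1 cKO. The groups did not overlap, and the row was 1.46-fold higher (log2 fold change 0.54 ± 0.14 SE, adjusted p = 0.024). It was no longer called without Brg1 cKO replicate 1, 2 or 3 (adjusted p = 0.067, 0.051 and 0.056). Pcdha2 had 0.24, 0.58, 0.49 and 0.61 CPM in Brg1 WT and 1.10, 0.69, 1.24 and 0.69 CPM in Brg1 cKO, with no overlap and an adjusted p = 0.076.

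**Figure D3:**
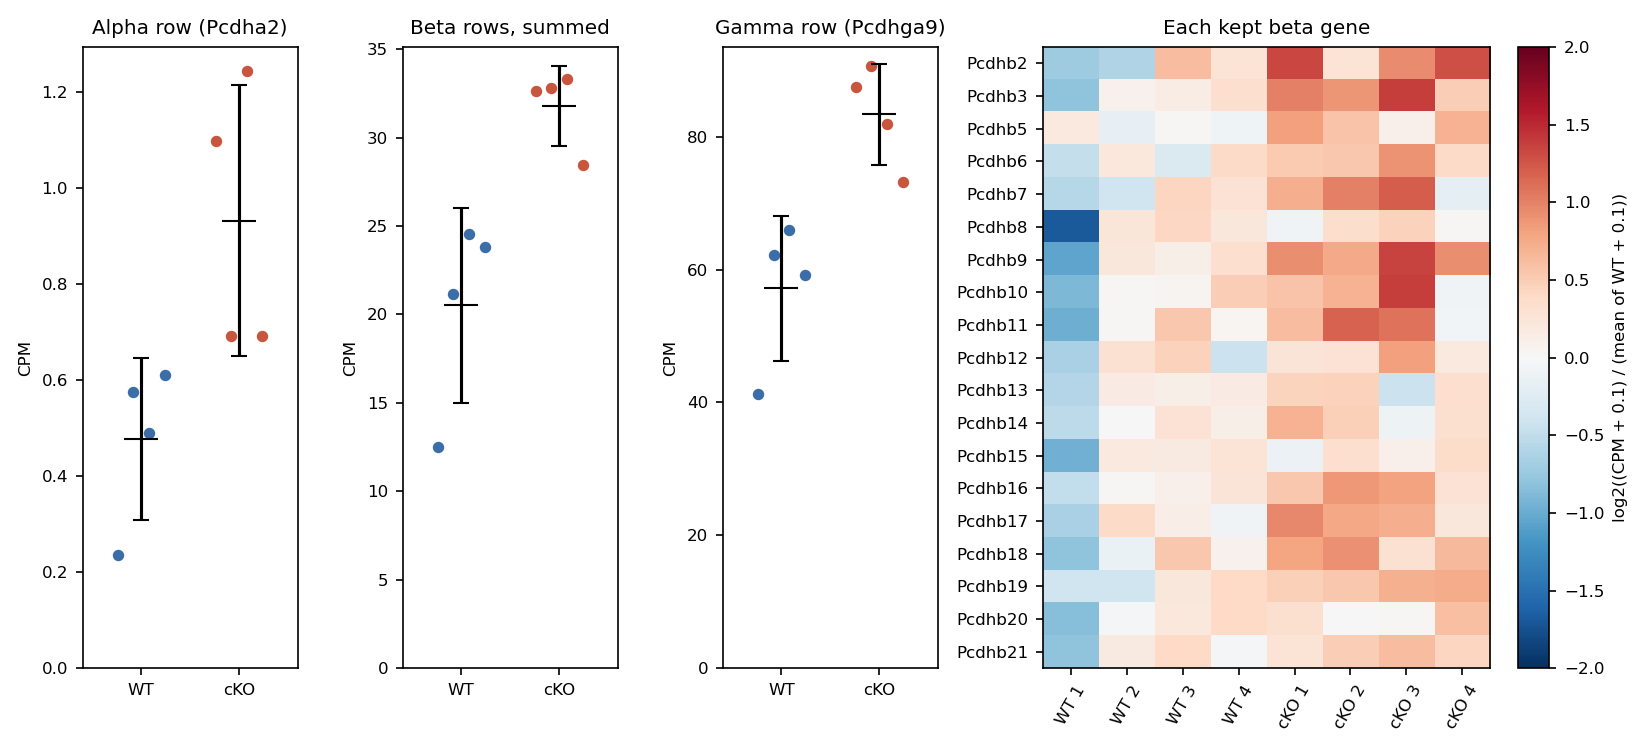
CPM of the alpha row, the summed beta rows and the gamma row in each library, with mean and SD, and for each kept beta gene the log2 ratio of each library to the Brg1 WT mean, after the small constant on the colour scale was added to both. The beta sum is 12.5 to 24.5 CPM in Brg1 WT and 28.4 to 33.3 CPM in Brg1 cKO, and the column of Brg1 WT replicate 1 is blue for 18 of the 19 genes.

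Marker lists of somatic cells also had medians above 0. Median log2 fold changes were 0.45 over 12 Sertoli cell markers, 0.42 over 11 stromal, 0.69 over 9 Leydig cell, 0.38 over 9 endothelial and 0.48 over 9 macrophage markers, and -0.35 over 10 pan-germ cell markers, of which 2 fell. Of 7 tested markers of pachytene cells and spermatids 5 fell, with a median of -1.31. No marker was at 0 in all libraries. Of the 19 kept beta genes 14 lay above the Sertoli median, 14 above the stromal, 9 above the Leydig, 14 above the endothelial and 13 above the macrophage median. All 19 lay above the pan-germ cell median and above that of pachytene cells and spermatids. Of these markers 6 Sertoli, 2 Leydig and 1 stromal gene rose, 1 stromal gene fell, and no endothelial or macrophage gene was called or had an unadjusted p under 0.05. The shares over all genes tested were 8.79% higher, 11.8% lower and 36.7% at an unadjusted p under 0.05 (edgeR). In Brg1 cKO replicate 4 the stromal sum was 2060 CPM and the endothelial sum 164 CPM, inside the Brg1 WT ranges of 1414 to 2445 and 153 to 240 CPM. The beta sum was 28.4 CPM and Pcdhga9 stood at 73.2 CPM in that library, each above every Brg1 WT library. The Sertoli sum in that library was 7489 CPM, above the Brg1 WT range. In Brg1 cKO replicate 2 the Sertoli sum of 5625 CPM lay inside the Brg1 WT range, and the beta sum was 32.8 CPM. The stromal, endothelial, Leydig and macrophage sums of that library were 3124, 371, 108 and 67.4 CPM. Those lay above the Brg1 WT maxima of 2445, 240, 65.3 and 63.7 CPM. Each of these is the value of 1 library, and the part of somatic RNA in the beta and gamma arrays was not tested.

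**Figure D4:**
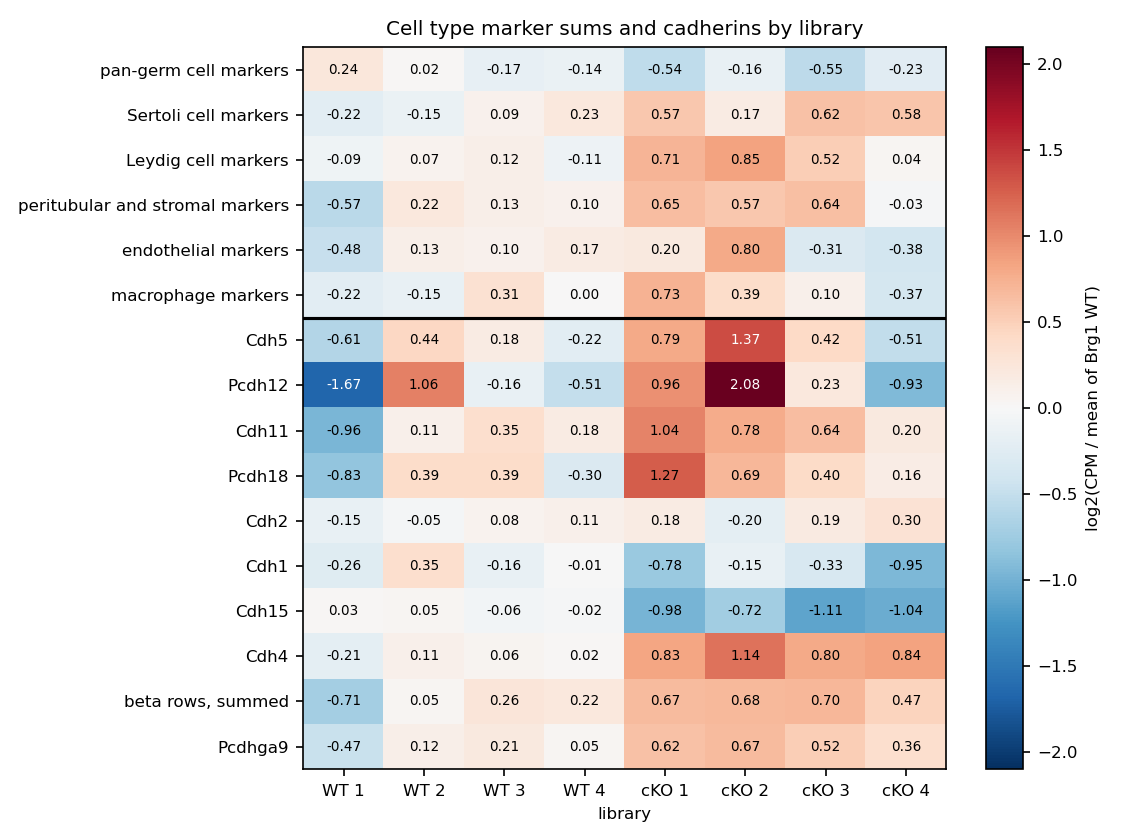
Log2 ratio of each library to the Brg1 WT mean for summed cell type markers, above the line, and for selected cadherins and protocadherins, below it. Cdh5 and Pcdh12 are highest in Brg1 cKO replicate 2, where the endothelial sum is highest too. Among the Brg1 cKO libraries Cdh15 and Cdh4 are highest there, at 2.41 and 6.20 CPM, and so is the pan-germ cell sum, at 1861 CPM. Cdh15 is at 4.05 CPM in Brg1 WT replicate 1, where the endothelial sum is the lowest of all 8 libraries.

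None of the 7 non-clustered protocadherins kept was called, with 2 at an unadjusted p under 0.05 in the edgeR test, beside 36.7% of all genes tested. Pcdh18, Pcdh7 and Pcdh1 were the most abundant by CPM. Pcdh18 had 4.49, 10.5, 10.5 and 6.51 CPM in Brg1 WT and 19.2, 12.9, 10.6 and 8.90 CPM in Brg1 cKO, overlapping through Brg1 cKO replicate 4 (log2 fold change 0.69 ± 0.32 SE, adjusted p = 0.152). Pcdh1 had 5.67, 8.28, 5.44 and 5.17 CPM in Brg1 WT and 8.61, 17.4, 9.06 and 5.99 CPM in Brg1 cKO. Brg1 cKO replicate 2 stood far above the other libraries, and the gene had an adjusted p = 0.117, or 0.048 without Brg1 cKO replicate 4. Pcdh7 had 8.15 ± 1.70 and 10.3 ± 1.61 CPM (adjusted p = 0.191).

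Pcdh12, a protocadherin of endothelium, had 0.24, 1.57, 0.67 and 0.53 CPM in Brg1 WT and 1.47, 3.17, 0.88 and 0.40 CPM in Brg1 cKO, with its highest value in Brg1 cKO replicate 2 as for Cdh5. Pcdh17 was the only kept protocadherin with a log2 fold change below 0, at -0.59 ± 0.25 (SE, adjusted p = 0.124). It had 7.69 CPM in Brg1 WT replicate 1, 4.52 to 4.64 CPM in Brg1 WT replicates 2 to 4 and 2.57 to 4.74 CPM in Brg1 cKO. The X-linked Pcdh19 had 2.20 ± 0.36 and 2.63 ± 0.82 CPM and Pcdh10 had 0.96 ± 0.22 and 1.27 ± 0.36 CPM (SD, n = 4 each). Pcdh11x, also X-linked, missed the count rule by 1 library, with 14.6, 13.6, 37 and 9.998 estimated counts in Brg1 WT and 9, 4, 4 and 2 in Brg1 cKO. The fourth Brg1 WT value lay just under the minimum of 10, so that rounded counts would have kept the gene. It passed the filter of the fit over all genes and was called lower there (log2 fold change -1.67 ± 0.50 SE, adjusted p = 0.043). Pcdh8 and Pcdh9 were at 0 in some libraries and at up to 25.7 and 16.1 estimated counts in others of the same genotype, and Pcdh20 had at most 2.68.

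Genes that act with cadherins were counted in lists. Each count of a list here and below stands beside 8.79% of all genes tested higher and 11.8% lower, and no list was tested. Of 11 catenins and linkers 4 rose, 1 fell and 6 were not called. Ctnnd2, the delta-catenin that binds the juxtamembrane region of classical cadherins, fell most, from 12.2, 14.7, 14.0 and 11.8 CPM in Brg1 WT to 4.67, 5.25, 4.21 and 3.91 CPM in Brg1 cKO. The groups were far apart (log2 fold change -1.54 ± 0.13 SE, adjusted p = 5.5e-04, edgeR), and the call held in every alternative run, including the fit without Brg1 WT replicates 1 and 2 (adjusted p = 0.014 as the highest of all alternatives). The cytoskeletal linker gene Vcl had a log2 fold change of 0.37 and Ctnnal1 one of 0.39, the latter losing its call without Brg1 WT replicate 1, 2 or 3 or Brg1 cKO replicate 1 or 3 (adjusted p = 0.054 to 0.071).

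Of 12 transcription factors known to act on cadherin genes 5 rose, 3 fell and 4 were not called. Grhl1, a Grainyhead factor of epithelia, had 15.6, 18.5, 17.6 and 15.8 CPM in Brg1 WT and 8.10, 9.11, 8.46 and 8.56 CPM in Brg1 cKO, with no overlap (log2 fold change -0.98 ± 0.099 SE, adjusted p = 9.4e-04). Zeb2, a repressor of Cdh1, had 59.2 to 79.3 CPM in Brg1 WT and 104 to 124 CPM in Brg1 cKO (log2 fold change 0.57 ± 0.10 SE, adjusted p = 0.0071). Tcf4, an E-protein, had 76.7 to 110 CPM in Brg1 WT and 127 to 156 CPM in Brg1 cKO (log2 fold change 0.60 ± 0.11 SE, adjusted p = 0.0073). These 3 calls held in every alternative. Zeb2 and Tcf4 are also made by stromal cells, whose markers had a median of 0.42, and that part was not tested.

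Of 6 nectin genes with the afadin gene 2 rose, 1 fell and 3 were not called, Pvrl3, now Nectin3, falling from 30.6 ± 1.91 CPM (SD, n = 4) to 23.5 ± 1.12 CPM (SD, n = 4) with an adjusted p = 0.011 (edgeR). The rises, in Pvrl2 and Pvr, were both lost without Brg1 WT replicate 1 (adjusted p = 0.079 and 0.090), Brg1 WT replicate 2 or 3 or Brg1 cKO replicate 1 or 3, and that of Pvr also without the fourth replicate of either genotype (0.073 and 0.057). Of 13 tested other members of the cadherin superfamily 2 rose, 2 fell and 9 were not called. Clstn2, a calsyntenin, fell from 9.98 ± 0.92 to 5.48 ± 0.96 CPM (adjusted p = 0.0060), and Ret, the GDNF receptor kinase with cadherin-like domains, from 65.8 ± 13.4 to 38.8 ± 5.33 CPM (adjusted p = 0.011). Markers of undifferentiated spermatogonia had a median log2 fold change of -0.57 and pan-germ cell markers one of -0.35. The part of germ cell RNA in the falls of Clstn2, Ret, Ctnnd2 and Grhl1 was not tested. Fat4, which rose, lost its call without any 1 library except Brg1 WT replicate 3 and Brg1 cKO replicate 4 (adjusted p = 0.059 to 0.103). The calls of Pvrl3, Clstn2, Ret and Vcl were lost in the fit without Brg1 WT replicates 1 and 2 (adjusted p = 0.098, 0.067, 0.052 and 0.138) and in no other alternative. Of 6 tested desmosomal genes 2, Dsg1b and Dsc2, rose and 4 were not called, and neither rise was called without Brg1 WT replicate 1 (adjusted p = 0.061 and 0.077), Brg1 WT replicate 2 (0.063 and 0.083) or Brg1 cKO replicate 1 (0.051 and 0.079). Dsg1b also lost its call without Brg1 WT replicate 3 (0.061), and Dsc2 without replicate 4 of Brg1 WT or replicate 2, 3 or 4 of Brg1 cKO (0.070 to 0.091).

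Of 11 genes for regulators of the clustered arrays, among them the architectural protein CTCF, cohesin and the methyltransferase SETDB1, 3 fell, none rose and 8 were not called. The falls were small, with log2 fold changes of -0.26 for Setdb1, -0.22 for the cohesin subunit gene Smc3 and -0.17 for Wapal, and each was lost in fits without single libraries, for example without Brg1 cKO replicate 1 (adjusted p = 0.097, 0.096 and 0.135). Of 7 genes of the sheddases and gamma-secretase, which cut cadherins, Aph1a rose (log2 fold change 0.29, adjusted p = 0.021) and 6 were not called. The call of Aph1a was lost without Brg1 WT replicate 2 or 3 or Brg1 cKO replicate 1 or 3 (adjusted p = 0.056 to 0.060).

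**Figure D5:**
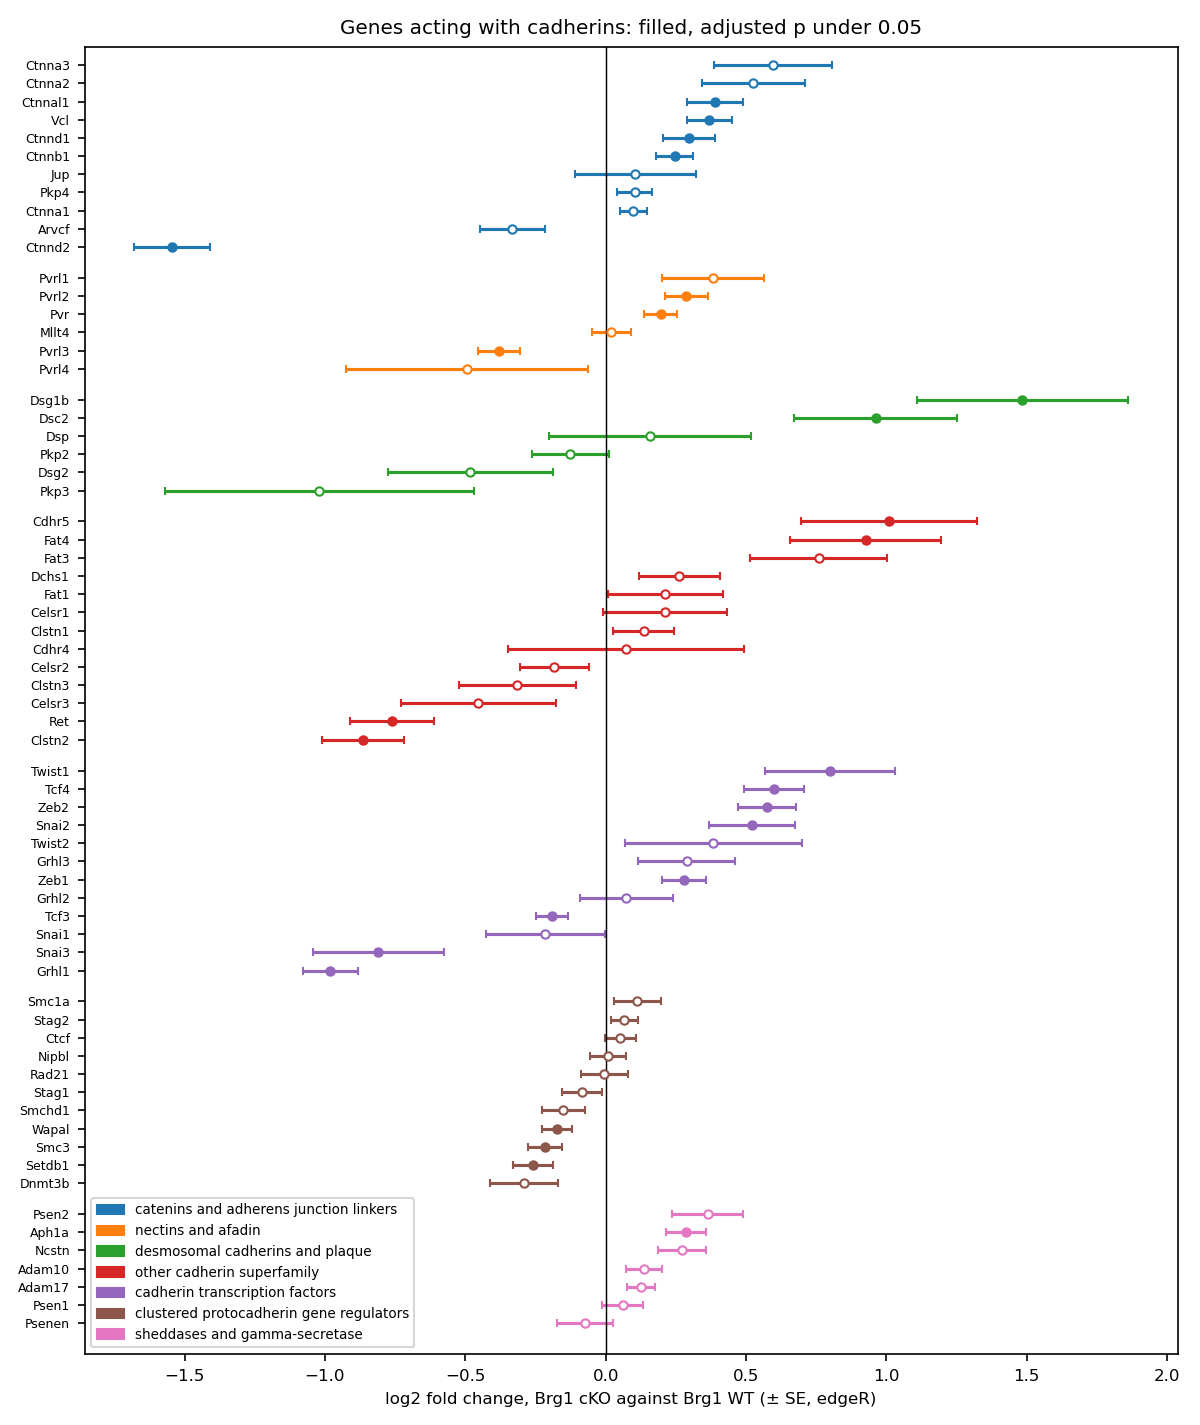
Log2 fold change with standard error of the tested genes in the 7 lists that act with cadherins, filled where the adjusted p was under 0.05. Ctnnd2 lies furthest to the left at -1.54, and Grhl1 lies at -0.98 below Zeb2 and Tcf4 at 0.57 and 0.60.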

How the data were processed

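RNA-seq estimated counts per gene symbol were deposited by the authors in 1 table, not scaled for depth or length, for 4 Brg1 WT and 4 Brg1 cKO libraries. Kallisto 0.42.5 and edgeR, with the build mm9, are named per the submitters' processing notes, and the kit was stranded, per the labels' protocols. The sources used here do not give the annotation or how transcripts were summed to symbols. Sample titles gave the genotype and replicate number. Estimated counts were rounded, filtered with filterByExpr to 16059 genes, scaled with TMM and fitted in edgeR 4.0.16 under R 4.3.3 (robust quasi-likelihood, genotype the only term), with Benjamini-Hochberg adjustment over all genes and a threshold of 0.05. An SE is |log2 fold change| over the root of its F statistic. The test was checked on simulated counts with known changes.

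CPM per kb used the longest GENCODE M21 transcript of the symbol. Members, gene lists and the naming rule were chosen with earlier results of these data known. Named were called members, the 3 most abundant of each class and up to 3 called genes of each list. DESeq2 1.42.0, limma-voom 3.58.1, RLE and upper-quartile factors, other filters, unrounded counts, left-out libraries and a replicate block were alternatives. All pairs of libraries differed beyond counting noise (lowest chi-square per degree of freedom 21.5). Depth, at 20456700 to 32596000 estimated counts, limits genes near the minimum of 10 counts.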

Additional observations from a re-analysis of the deposited data

Results flagged for a closer look

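A single library stood apart from the other 3 of its genotype in 10 of 122 groups of 4 values examined by Dixon's criterion, where chance gives about 1 in 20. Brg1 WT replicate 1 was the library in 6 of them. It was low for Pcdhb13 (0.71 CPM against 1.22 to 1.27 in the others), Pcdhb15 (0.24 against 0.64 to 0.69), Pcdhb8 (0.067 against 0.53 to 0.61) and Zeb2 (59.2 against 77.3 to 79.3), and high for Pcdh17 (7.69 against 4.52 to 4.64) and Setdb1 (230.3 against 203 to 206). Brg1 cKO replicate 2 was high for Cdh4 (6.20 CPM against 4.89 to 5.05). Brg1 WT replicate 2 was high for Pcdh1 (8.28 against 5.17 to 5.67), Brg1 cKO replicate 3 for Pcdhb12 (1.20 against 0.74 to 0.80) and Brg1 cKO replicate 1 for Zeb2 (123.6 against 104 to 106).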

How the results depend on the processing

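Of 744 values of the 42 genes under 18 alternatives, 683 kept direction and side of the threshold, 43 lost and 10 gained a call and 8 turned sign, all in uncalled genes. Calls were gained by Cdh11, Pcdhb16 and Pcdhb17 in DESeq2 (adjusted p = 0.031, 0.026 and 0.040) and by Pcdhb16 in limma-voom (0.0497). In edgeR, Pcdh1, Pcdhb7, Pcdhb16 and Pcdhb17 gained one without Brg1 cKO replicate 4 (0.042 to 0.048). Cdh19 and Pcdh1 gained one with a replicate block (0.030 and 0.048). Over fits without 1 library each, log2 fold changes ran from -0.26 to 0.071 for Cdh20 (above 0 without Brg1 WT replicate 2 and, at 0.065, Brg1 cKO replicate 1), from -0.038 to 0.34 for Pcdhb15 and from -0.097 to 0.50 for Pcdhb8 (both below 0 without Brg1 WT replicate 1). Cdh20 turned to 0.33, and Pcdhb15, Pcdhb8 and Pcdhb20 to -0.045, -0.12 and -0.047, without Brg1 WT replicates 1 and 2. DESeq2 called 2228 of all genes higher and 8 members higher, and 1 member was called lower with no filter. Without Brg1 WT replicates 1 and 2, which leaves 2 libraries in that genotype, 438 genes were called, 96 higher and 342 lower, and 0 members, 0 higher and 0 lower. Of the 42 genes 8 had an unadjusted p under 0.05 there, and 22 with all 8 libraries (edgeR). Over fits without 1 library each, all genes called ran from 1608 to 3477, higher from 556 to 1497 and lower from 1052 to 1980, and members called from 2 to 8, higher from 1 to 7 and lower from 1 to 2. The replicate numbers gave no sign of pairing, which this check cannot exclude. Deviations of same-numbered libraries correlated at -0.21, 0.13, -0.37 and 0.15, and those of pairs with different numbers at -0.27 to 0.31. With the number as a replicate block 1914 genes were called, 745 higher and 1169 lower, and 5 members, 4 higher and 1 lower. Cdh23, Cdh24, Pcdhb9 and Pcdhb3 lost their calls in that fit (edgeR, adjusted p = 0.067, 0.079, 0.058 and 0.088). The 5 members include Cdh19 and Pcdh1, which were not called without the block. The causes were not tested. Low counts limit the beta genes, many of them under 1 CPM.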
